A study of Homo sapiens with 6 samples.

Results

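The SOX transcription factors were examined in MDA-MB-231 cells, an established human line of triple-negative breast cancer, in a study that silenced the RNA-binding protein *RBMS3*. The genes were taken by symbol, as SOX followed by digits only, and 6 of the 15917 genes listed in the table qualified: *SOX2*, *SOX4*, *SOX6*, *SOX9*, *SOX12* and *SOX13*. The series has 6 total RNA libraries, 2 each for the control hairpin shCTRL and for the hairpins shRBMS3-B3 and shRBMS3-C3 against *RBMS3*. The labels call both libraries of each group biological replicates, and all groups share the parental line and growth medium.

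The measure described here is the authors' mean normalized count, a single value per gene pooled over libraries, so it carries no SD and no n. The study describes its comparison as one of 2 knockdown and 2 control biological replicates without naming the hairpin. Which of the libraries entered the mean is therefore not known here. Values of single libraries were not analysed here, and depth is unknown. Levels in control and knockdown cells are therefore not separated, and no difference between groups was tested. Where 2 genes differ in level, the spread between libraries that would set the error of that difference is likewise unknown.

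SOX proteins bind DNA through a high mobility group box, a domain that enters the minor groove and bends the helix, and they usually act with a partner factor on a shared enhancer. They are grouped by the similarity of this box, and members of one group often stand in for each other during development. The study examined an AUA element, a short A/U-rich sequence, in the 3′UTR, the part of the mRNA after the stop codon, in relation to RBMS3. The SOX mRNAs held between 1 and 10 matches to this element.

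The AUA element was read as 7 positions: A, G or T, then A or T, then ATA, then A or T, then A, on the sense strand, with T standing for U. One GENCODE transcript per gene on GRCh38 was read for it after the stop codon, and matches that overlap were joined into one site. The sites of *SOX4*, a member of the SOXC group with roles in progenitor cells and in the epithelial to mesenchymal transition, are shown in full because this gene had the most matches per site. Capitals mark the matching bases, and 7 neighbouring bases are given on each side.

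SOX4 site 1 at chr6:21597054-21597074, plus strand: gtggggtTAATATAgcatgtt
SOX4 site 2 at chr6:21597132-21597154, plus strand: tgtaggaTAATATAAAaagcaga
SOX4 site 3 at chr6:21597700-21597724, plus strand: ttgtaaaAAATATATAAAgggggtg
SOX4 site 4 at chr6:21598183-21598203, plus strand: tgtcgctAAATATAattgttt
SOX4 site 5 at chr6:21598332-21598352, plus strand: gtatgttTAATATAacatgac
SOX4 site 6 at chr6:21598547-21598567, plus strand: attgttgATATATAccttctg
SOX4 site 7 at chr6:21598583-21598603, plus strand: gagaaggAAATAAAatcagct

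The sites of *SOX9*, a SOXE factor known for cartilage formation and for progenitor cells of several epithelia, are shown because *SOX9* had the highest density of matches.

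SOX9 site 1 at chr17:72125122-72125142, plus strand: taaaaaaAAATAAAggcctta
SOX9 site 2 at chr17:72125191-72125213, plus strand: ctttatcATATATATAtttttta
SOX9 site 3 at chr17:72125728-72125748, plus strand: tagatttGTATAAAtgccttt
SOX9 site 4 at chr17:72125806-72125826, plus strand: tttttttGTATAAAtgagaga
SOX9 site 5 at chr17:72126129-72126149, plus strand: gtcagtaGAATAAAatcttaa
SOX9 site 6 at chr17:72126174-72126194, plus strand: aatttctGTATAAAagcagat
SOX9 site 7 at chr17:72126389-72126409, plus strand: ttacaatAAATATAcattgca

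For *SOX2*, *SOX12* and *SOX13* the site nearest to the end of the transcript is shown, because in each of them it holds AATAAA, the polyadenylation signal. For *SOX13* it is the only site.

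SOX2 site 2 at chr3:181714400-181714420, plus strand: ttgagatAAATAAAtttttga
SOX12 site 3 at chr20:330195-330215, plus strand: ttattccTAATAAAcatcttg
SOX13 site 1 at chr1:204127713-204127733, plus strand: gatgacaTAATAAAgacagat

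The levels of the 6 genes spanned a wide range. The authors' mean normalized count was 3065 for *SOX9*, 1565 for *SOX13*, 1053 for *SOX4*, 435 for *SOX12*, 81.4 for *SOX6* and 28.1 for *SOX2*. The table lists means from 26.7 to 859682 with a median of 364, so *SOX2* was only just above the lowest listed value and *SOX9* lay at percentile 92.6 of all listed genes. Of the 6 genes, 4 were above the median. The highest mean was 109 times the lowest.

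Long transcripts yield more fragments per molecule, so genes were compared after division by spliced length. Per kilobase of transcript, the mean normalized count was 780 for *SOX9*, 384 for *SOX13*, 216 for *SOX4*, 93.0 for *SOX12*, 11.2 for *SOX2* and 8.75 for *SOX6*, against a median of 137 over all genes with a length. On this scale 3 genes were above the median, and *SOX12* was below it. *SOX9* alone held 52.2% of the summed per-kilobase level of the 6 genes, and *SOX9*, *SOX13* and *SOX4* together held 92.4%. With the median length of a gene's transcripts in place of the representative one, *SOX9* held 24.1% and *SOX13* 63.9%.

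Neighbours in the per-kilobase order stood apart by 2.03 times for *SOX9* over *SOX13*, by 1.77 times for *SOX13* over *SOX4* and by 2.33 times for *SOX4* over *SOX12*. The widest gap, 8.33 times, separated *SOX12* from *SOX2*, while *SOX2* exceeded *SOX6* by only 1.28 times. *SOX2* and *SOX6* changed places between both scales, since the *SOX6* transcript has 9304 bases and the *SOX2* transcript 2512. *SOX13* has 10 annotated transcripts and *SOX6* has 19, many of them short, and with the median length of a gene's transcripts *SOX13* reached 2069 per kilobase, above *SOX9*, and *SOX6* reached 67.7. Their places in the order thus depend on the transcript that is assumed.

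**Figure D1:**
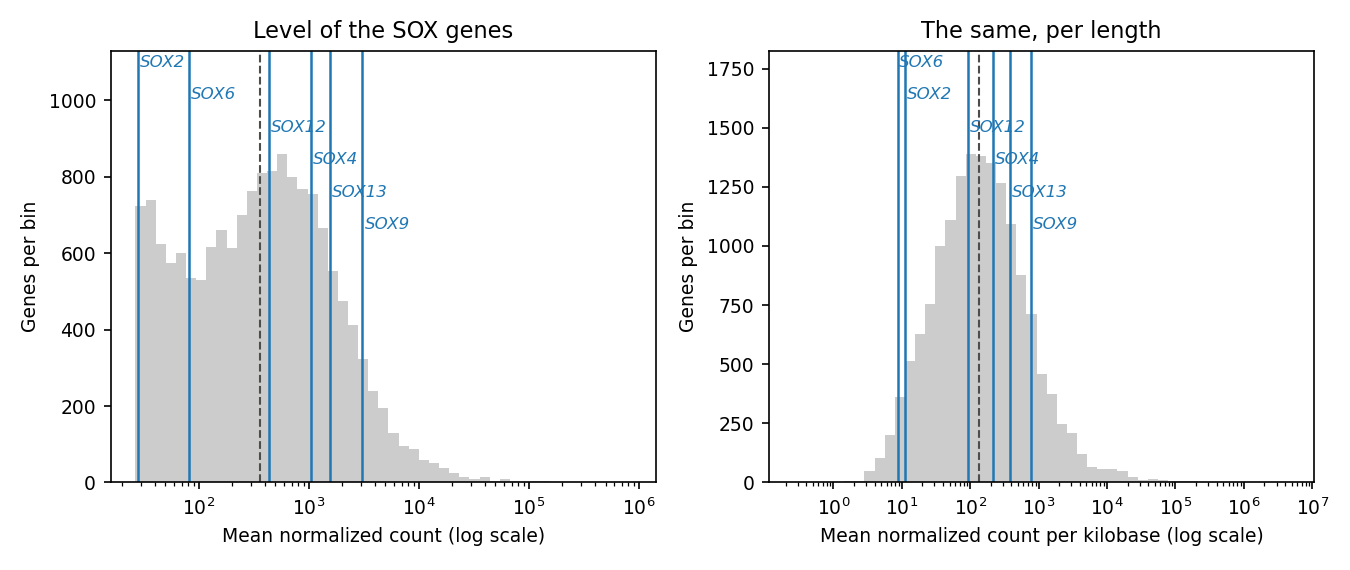
Mean normalized count of the listed genes (left) and the same value per kilobase of transcript (right), on log axes, with the number of genes per bin in gray, the median of all genes as a dashed line and the SOX genes as blue lines. *SOX9*, *SOX13* and *SOX4* lie to the right of the median on both scales. *SOX12* lies on either side of it, and *SOX2* and *SOX6* lie to the left of it on both scales.

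By group, *SOX4* and *SOX12* were the listed SOXC genes and *SOX6* and *SOX13* the listed SOXD genes, whose proteins lack a strong activation or repression domain of their own and act through partners. *SOX9* was the only listed SOXE gene, and *SOX2*, a SOXB1 factor of pluripotent and neural progenitor cells, the only listed gene of the SOXB groups. Within SOXC, *SOX4* was 2.33 times as high per kilobase as *SOX12*. Within SOXD, the per-kilobase value of *SOX13* was 384 and that of *SOX6* was 8.75. The table does not list 13 of 19 human SOX genes, namely *SOX1*, *SOX3*, *SOX5*, *SOX7*, *SOX8*, *SOX10*, *SOX11*, *SOX14*, *SOX15*, *SOX17*, *SOX18*, *SOX21* and *SOX30*. No row has a mean below 26.7, and whether these genes were under that level or were left out for another reason is not given in the sources used here.

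Other factors with an HMG box that read a specific sequence overlapped the SOX genes in level. Of 7 such genes, *TCF7L1* was not listed, and 3 of the 6 listed were above the median per kilobase. The value was 438 per kilobase for *CIC*, a repressor downstream of receptor tyrosine kinases, 275 for *TCF7L2* and 66.7 for *LEF1*, both nuclear partners of beta-catenin, 167 for *BBX*, 102 for *HBP1* and 43.0 for *TCF7*. *SOX9* was above all of these. Of 5 partner factors of SOX proteins, 3 were listed, and their per-kilobase values were 1839 for *CTNNB1*, which encodes beta-catenin, 320 for *EP300*, a histone acetyltransferase, and 46.0 for *POU2F1*, an octamer-binding factor. *POU3F2* and *PAX6*, which join SOX2 on neural and lens enhancers, were not listed.

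The labelled cell type was checked against its markers. All 5 mesenchymal markers were listed and above the median per kilobase, led by *VIM*, which encodes vimentin, at 32189 and *AXL*, a receptor tyrosine kinase, at 7502. Of 7 luminal markers, the hormone receptor genes *ESR1* and *PGR* and the pioneer factor gene *FOXA1* were not listed. Of the 4 listed, only *KRT18*, at 8980, was above the median per kilobase. *EPCAM* had 69.3, *GATA3* 55.6 and *CDH1*, the gene of E-cadherin, 6.57. The white blood cell markers *PTPRC* and *CD3E* were not listed, and the fibroblast markers *COL1A1* and *PDGFRB* had 32.5 and 24.5. The targeted gene *RBMS3* had a mean normalized count of 272, or 32.1 per kilobase, pooled over libraries, and it therefore gives no check of the knockdown by group.

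The loci of the 6 genes differ in structure. *SOX2*, *SOX4* and *SOX12* each consist of a single exon, *SOX9* has 3 exons, *SOX13* has 14 and *SOX6* has 16. *SOX6* (ENSG00000110693) spans 773143 bases of chromosome 11 from 15966449 to 16739591, minus strand. *SOX4* (ENSG00000124766) covers 4869 bases of chromosome 6 from 21593751 to 21598619, and *SOX9* (ENSG00000125398) covers 5397 bases of chromosome 17 from 72121020 to 72126416. *SOX13* (ENSG00000143842) is on chromosome 1 from 204073115 to 204127743, *SOX12* (ENSG00000177732) on chromosome 20 from 325552 to 330224, and *SOX2* (ENSG00000181449) on chromosome 3 from 181711925 to 181714436, all on the plus strand.

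*SOX2* is inside another listed gene. The lncRNA *SOX2-OT* runs on the same strand of chromosome 3 from 180989762 to 181836880, and none of its 119 annotated transcripts has an exon over *SOX2*. Its mean normalized count was 115, or 4.11 times that of *SOX2*, and its value per kilobase was 72.9. Intronic reads of *SOX2-OT* at this place would have the same strand as *SOX2* mRNA in a total RNA library, and their share in the *SOX2* value was not tested. Each of the other SOX genes also overlaps at least 1 annotated gene, among them *SOX9-AS1* at *SOX9* and *NRSN2-AS1* at *SOX12*, and whether counting used strand is not given in the sources used here.

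Every one of the 6 3′UTRs held at least 1 match to the AUA element, as did 84.8% of the 12350 listed genes with a 3′UTR, so the presence of the element does not set the SOX genes apart. In number of matches they divided. *SOX4* and *SOX6* had 10 matches each, *SOX9* had 8, *SOX12* had 3, *SOX2* had 2 and *SOX13* had 1, against a median of 3 over all genes. The 34 matches formed 30 separate sites. In *SOX4*, the 10 matches formed 7 sites, and site 3 alone joined 3 overlapping matches in 11 bases.

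The 3′UTRs were long in 5 of the 6 genes when set beside the median of 1378 bases. The 3′UTR measured 6360 bases in *SOX6*, 3352 in *SOX12*, 2660 in *SOX4*, 2029 in *SOX9*, 1609 in *SOX13* and 1122 in *SOX2*. Per kilobase of 3′UTR, *SOX9* had 3.94 matches and *SOX4* 3.76, both above the median of 2.43. *SOX2* had 1.78, *SOX6* 1.57, *SOX12* 0.895 and *SOX13* 0.622. The long 3′UTR of *SOX6* thus held as many matches as that of *SOX4* at less than the median density.

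A+U made up 64.6% of the 3′UTR in *SOX9*, 64.5% in *SOX2*, 61.1% in *SOX6*, 58.2% in *SOX4*, 45.8% in *SOX13* and 42.8% in *SOX12*, beside a median of 57.9% over all genes. *SOX12* and *SOX13*, the genes with the lowest A+U content, also had the fewest matches per kilobase. The other genes did not follow this order, since *SOX4* had more matches per kilobase than *SOX2* and *SOX6* at a lower A+U content. Coding sequences were poorer in A+U than the median of 48.1% in 5 of the 6 genes, from 27.1% in *SOX12* to 38.7% in *SOX13*, with *SOX6* at 50.3%.

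Genes with a 3′UTR of similar length, within 1.2 times of the SOX gene, gave a closer reference. *SOX4* had 10 matches where 1544 genes of similar length had a median of 6, with quartiles of 3 and 10. *SOX9* had 8 matches where the median of 1546 genes was 5, with quartiles of 2 and 8. *SOX6* had 10 where the median of 580 genes was 15, and *SOX12* had 3 where the median of 1441 genes was 8. *SOX13* had 1 where the median of 1542 genes was 4, and *SOX2* had 2 where the median of 1300 genes was 2.5. *SOX4* and *SOX9* equalled the upper quartile of such genes, and *SOX12* and *SOX13* were below the lower quartiles of 4 and 2.

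**Figure D2:**
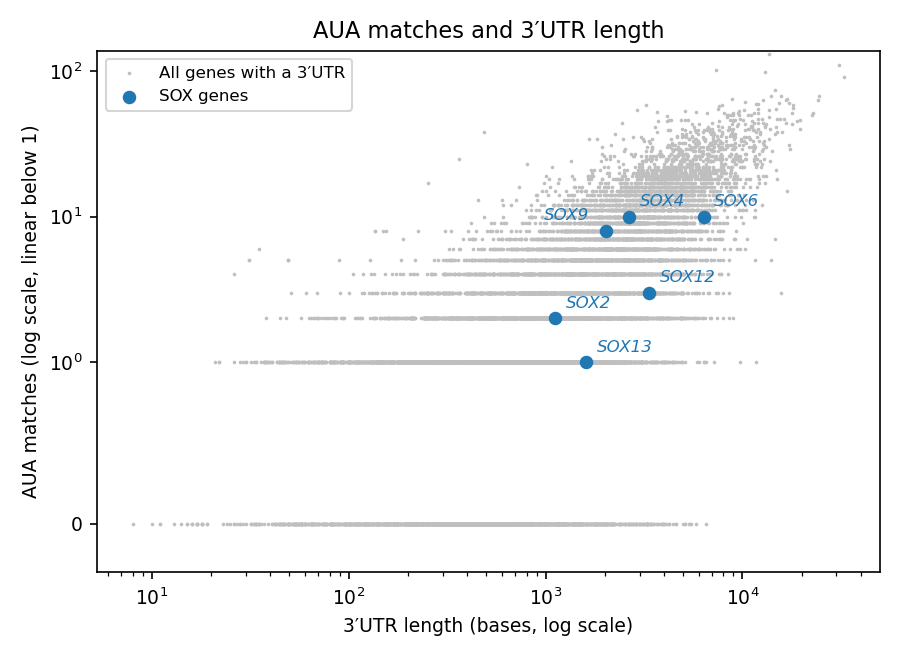
Number of AUA matches against 3′UTR length for the listed genes with a 3′UTR (gray) and the SOX genes (blue), with length on a log axis and matches on an axis that is logarithmic above 1. *SOX4* and *SOX9* lie in the upper part of the cloud at their length, and *SOX12* and *SOX13* in its lower part.

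Of the 34 matches, 23 were in the later part of their 3′UTR, past its middle, a share of 67.6% beside 57.5% of the matches of all listed genes. *SOX6* had 5 of its 10 there. The first match began 1102 bases after the stop codon in *SOX4*, 1012 bases after it in *SOX2*, 1836 in *SOX12* and 1586 in *SOX13*, and these 3′UTRs had no match before those points. *SOX9* began at base 742 and *SOX6* at base 648. In 5 of the 6 genes the last match ended within 50 bases of the transcript end, at a distance of 14 bases in *SOX9*, 16 in *SOX12*, 17 in *SOX13*, and 23 in both *SOX2* and *SOX4*. In *SOX6* the last match was 468 bases from the end. Over the 10476 listed genes with a match, the last one ended within 50 bases of the transcript end in 69.8%, so such a place is common.

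**Figure D3:**
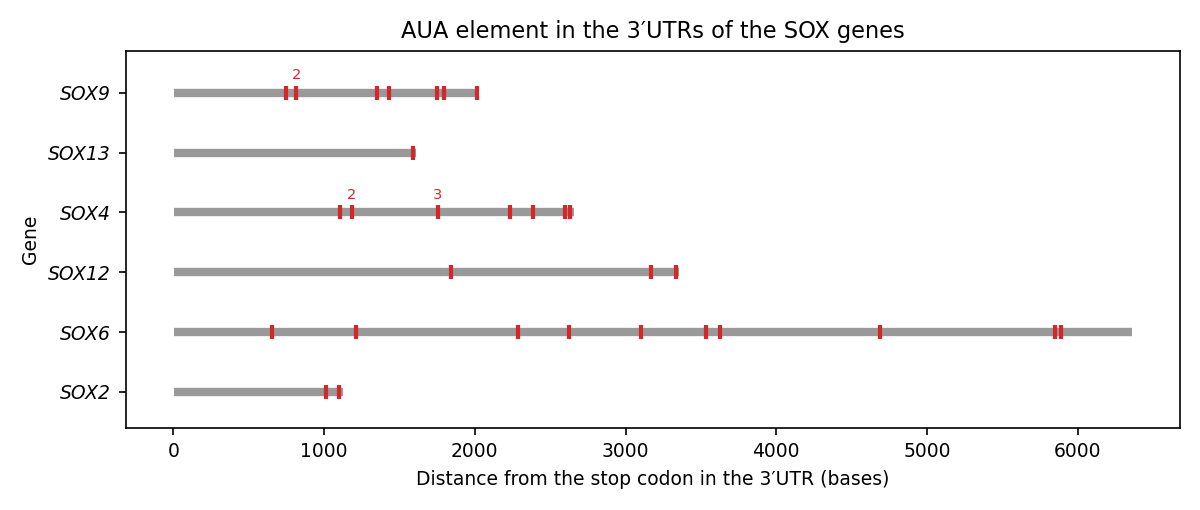
The 3′UTRs of the SOX genes drawn to scale from the stop codon, in bases, with AUA sites in red and a number over sites that join several matches. The sites of *SOX2*, *SOX12* and *SOX13* are few and late. Those of *SOX4* and *SOX9* lie mostly, but not only, in the later part, and those of *SOX6* are scattered over 6360 bases.

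The element as written includes AATAAA when this is preceded by A, G or T, so matches to both motifs can be the same bases. In the study's motif search, AATAAA ranked as the most significant motif at RBMS3-binding sites. With scrambled sequences as background, the study also reported an AUA motif at these sites. Whether leaving out matches that hold AATAAA gives a closer measure of RBMS3 binding was not tested here. Of the 34 matches, 13 held AATAAA, a share of 38.2%, close to 36.0% over the matches of all listed genes. At the match nearest to the transcript end, AATAAA was present in each gene but *SOX9*, and it was present at that match in 71.9% of all genes with a match. The only match of *SOX13* and 2 of the 3 in *SOX12* were of this kind, as were 6 of the 10 in *SOX6*. In *SOX4* it was 1 of 10 and in *SOX9* 2 of 8. Without them, 5 of the 6 genes had at least 1 match, beside 62.4% of all genes, and the density was 3.38 per kilobase in *SOX4*, at percentile 84.6, and 2.96 in *SOX9*, at percentile 81.2. With every match counted the percentiles were 69.3 and 71.3. The percentile was also higher without these matches in *SOX12*, at 38.9 in place of 23.7, in *SOX6*, at 44.4 in place of 35.2, and in *SOX2*, at 49.8 in place of 38.9, while *SOX13* had no match left.

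The words that matched also differed between the genes. TAATATA occurred 3 times and only in *SOX4* among the 6 genes, and GTATAAA occurred 4 times, in *SOX9* and *SOX12*. The most common word was AAATAAA, with 6 matches in *SOX2*, *SOX4*, *SOX6* and *SOX9*. A match is a string of letters and does not show that RBMS3 binds there. The study did list a *SOX4* 3′UTR sequence among its reporter sequences for RBMS3-binding sites. It also had *SOX4* among the targets of its pooled knockdown screen. Of those targets, the study singled out *TXNIP*, not *SOX4*, for a lung colonization phenotype. None of the *SOX4* sites shown above occurs with its neighbouring bases in the listed *SOX4* reporter sequence. That reporter sequence holds AAATAAA only across the join to end bases that all the listed reporter sequences share.

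Among the other HMG box factors, *TCF7L2* had 19 matches in a 3′UTR of 1706 bases, or 11.1 per kilobase, above every SOX gene. *BBX* had 22 in 5882 bases, or 3.74 per kilobase, close to *SOX4*, and *CIC* had none in 605 bases. The targeted gene *RBMS3* itself had 17 matches in a 3′UTR of 6524 bases, or 2.61 per kilobase.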

How the data were processed

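Total RNA libraries of MDA-MB-231 cells were made by the authors with a stranded kit for small inputs that removes ribosomal cDNA, and sequenced as paired ends. Processing notes of the submitters name Salmon, DESeq2 and hg38, and versions for this table are not given in the sources used here. The deposited signal used here is the mean normalized count of each gene, pooled over libraries. The other 5 numeric columns hold the authors' own comparison of knockdown with control cells (log2 fold change, its standard error, test statistic, p-value and adjusted p-value) and were not used. Values per library were not used here, so depth and replicate error are unknown and no test was made. The 6 samples were grouped by title.

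GENCODE release 44 (GRCh38) was matched by gene ID and holds 15829 of the listed IDs, with 88 unmatched. The representative transcript was MANE Select, otherwise Ensembl canonical, otherwise that with the longest coding sequence. Percentiles give the share of genes below a value, with tied genes counted in part. A 3′UTR needed at least 7 bases and an annotated stop codon. For all 6 genes the spliced transcript was identical to the hg38 bases at its exons. Element counting was tested on simulated data and was right for 200 of 200 sequences. Genes and lists were chosen with earlier results of these data known. The named genes are all listed SOX genes, other SOX-named rows, other HMG box factors, SOX partner factors and markers. A comparison of SOX proteins was planned and not made, because no protein sequences were used here. Alternatives were another background, a filter on low means, other transcript lengths, the longest 3′UTR, at least 3 matches, AATAAA and the coding sequence. Python 3.11.15, numpy 2.4.6, pandas 2.3.3 and matplotlib 3.10.9 were used.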

Additional observations from a re-analysis of the deposited data

How the results depend on the processing

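The number of SOX genes above the median mean normalized count was 4, and 3 among protein-coding genes or among genes with a mean of at least 100. The number above the median per kilobase was 3, and 2 with the median length of a gene's transcripts. The gene that fell below the median in that setting was *SOX4*, at percentile 43.3 in place of 61.7. An AUA match was present in 6 genes with the longest annotated 3′UTR, and 4 genes had at least 3 matches, as did 53.1% of all genes with a 3′UTR. Without matches that hold AATAAA, an alternative chosen after seeing the data, it was 5. In the coding sequence, where the element was sought instead, it was present in 1. Of 46 values of single genes recomputed, 32 stayed within 1.5 times. Of the 14 further away, 9 were counts of AATAAA or of matches in the coding sequence. Those counts concern another motif or another region, so they do not measure how stable the main counts are. The longest annotated 3′UTR left every count of matches unchanged. Another normalization and each library left out were not run, since a pooled mean allows neither. No paired analysis was possible because a single pooled mean per gene has no replicates. Depth is unknown, and *SOX2*, with a mean near the lowest listed, has an error that cannot be given.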
